A study of Medicago truncatula with 12 samples.

Results

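The 100 most evenly expressed genes were taken from a stress time course of *Medicago truncatula*, the model legume, and were set against *ACTIN*, the gene that the study used as the standard of its qRT-PCR. To choose them, each of the 12 FPKM columns (the fragments on a gene relative to its transcript length and to the depth of the library) was scaled to a sum of 1000000. Among the 9533 of 54073 genes with a mean scaled value of at least 20, the 100 genes with the lowest coefficient of variation (CV, the SD over the mean) across the 12 libraries were kept, which is 1.05% of the 9533. The choice therefore rests on the same values that are described here, so the low spread of the members is a description and not a finding, and no test was made on it.

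The plants were wild-type seedlings of cv. Jemalong A17, an inbred line, 4 weeks old at the start of the treatments. They were kept in the cold, laid on dry filter paper for drought, or placed in nutrient solution with NaCl for salt stress, and were harvested at 0, 2, 6 and 12 h. Only 1 library was made per stress and time point, which gives 12, and no difference between conditions has a replicate check. The 0 h library of each stress was its control, and no unstressed seedlings were sampled at the later times, so time and stress cannot be told apart. Whether several seedlings were pooled in a library is not given in the sources used here.

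Genes with an even transcript level are often called housekeeping genes, because many of them serve processes that every cell needs, such as protein synthesis and degradation, transport inside the cell and the cytoskeleton. In qRT-PCR, the amount of a transcript is divided by that of a reference gene, and a change of the reference between conditions enters every result with the opposite sign. *ACTIN* encodes the subunit of actin filaments, a part of the cytoskeleton, and is a widely used reference in plants. Actins form a gene family with closely similar members, and reads shared between them may be counted for either, which was not tested here.

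The amount of *ACTIN* transcript in the study's qRT-PCR was read with a pair of designed primers, shown here because every relative value of that assay passes through them. They are written 5′ to 3′, and the capitals mark the 5 bases at the 3′ end, from which the polymerase extends.
ACTIN forward primer: aaaaggatgcctatgtTGGTG
ACTIN reverse primer: taagtggagcctcagttagAAGTA
The forward primer has 21 bases, of which 9 are G or C, and the reverse primer has 24 bases, of which 10 are G or C. The RNA-seq values of *ACTIN* (MTR_3g095530) count fragments assigned to the gene, with a transcript length of 2894 bp behind its FPKM. Which part of the transcript these fragments cover is not settled by the sources, and it need not be the primed part.

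The files name the genes by locus only, and 0 of these locus names were found in the RefSeq table at hand, so the functions of the members are unknown here. For the same reason the seedling tissue was not checked against marker genes. Between 12206698 and 25438698 fragments per library lay on genes (median 16483530), and the summed FPKM was between 506391 and 568168. FPKM values of all 37274 genes above 0 corresponded to whole fragments, within 0.01 of a fragment, once 1 transcript length per gene was found. All 9533 genes over the floor were among them. A gene with fragments in only a few libraries can fit some length through the search alone, so the result says little for such genes. The 0 h libraries of cold and drought were the most alike, with a chi-square per degree of freedom of 1.72, above the value of 1 that counting error alone gives. The 0 h library of salt was at 5.63 and 5.64 from them, and the next closest pair was at 21.9. Whether those of cold and drought came from a shared RNA source cannot be told from this value. Each was kept as a separate library.

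The members covered a wide range of levels. Their mean scaled values ran from 20.2 to 699.97 with a median of 63.1, against a median of 44.4 for the 9533 genes over the floor. Their CV ran from 3.09% to 7.32% with a median of 6.48%, whereas the median over the 9533 genes was 27.7%. The highest of the 12 libraries was 1.11 to 1.34 times the lowest in a member, and 2.44 times in the median gene over the floor. Only 11 members had a mean of at least 200, among 763 such genes. Members were 0.505% of the genes with a mean from 20 to 30, 1.65% of those from 200 to 400, and 1.08% of those of at least 400.

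**Figure D1:**
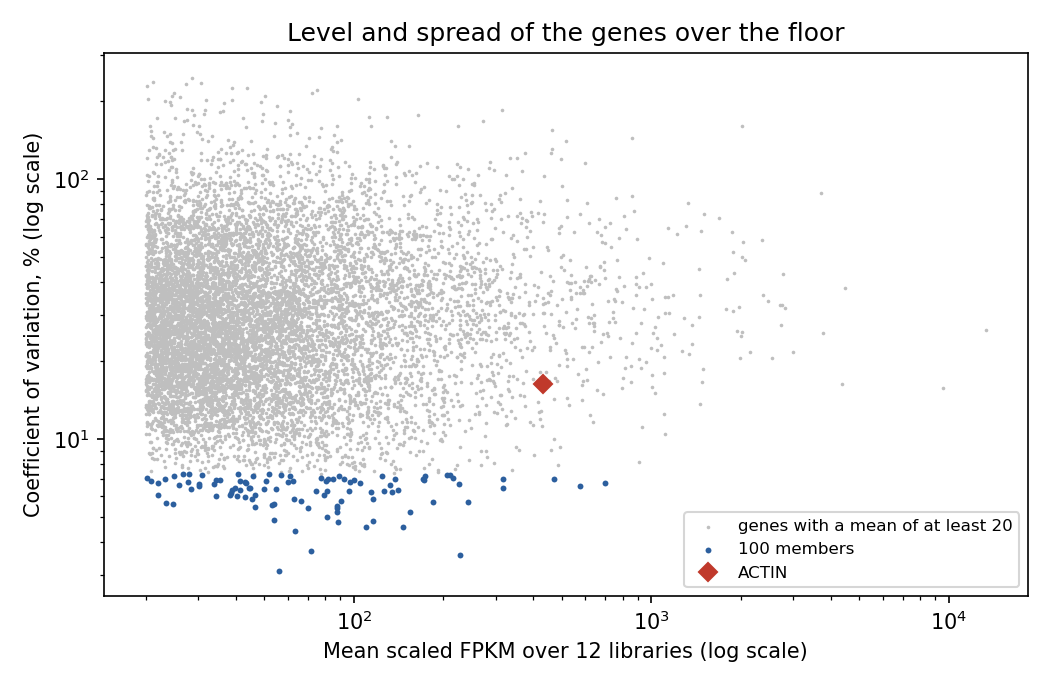
Each point is 1 of the 9533 genes with a mean scaled FPKM of at least 20, placed by its mean over 12 libraries and its coefficient of variation in percent, both on log scales. The 100 members form the lower edge up to 7.32%, and *ACTIN*, with a mean of 431.7, lies above them at 16.3%.

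The lowest CV was that of MTR_4g100930, at 3.09%. Its scaled values at 0, 2, 6 and 12 h were 53.99, 56.8, 55.1 and 55.2 in cold, 58.1, 54.2, 52.9 and 57.3 in drought, and 56.7, 58.7, 56.0 and 56.2 in salt. The values of the 3 stresses overlapped, and no stress series moved in 1 direction throughout. With 441 to 949 fragments per library, each of its 9 ratios to 0 h had a 95% counting interval that included 1. The widest departure was at 6 h of drought, with a ratio of 0.91 (95% interval 0.814 to 1.02, counting error only).

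MTR_1g112870 was the second, with a CV of 3.57% at a higher level (mean 226.7). Its scaled values at 0, 2, 6 and 12 h were 227.2, 229.0, 221.0 and 225.8 in cold, 225.4, 215.5, 224.6 and 238.96 in drought, and 221.5, 215.9, 234.1 and 241.0 in salt. The highest values were those at 12 h of salt and of drought, and the lowest those at 2 h of the same stresses. Its 74313 fragments gave narrow intervals, and at 12 h of salt its ratio to 0 h was 1.09 (95% interval 1.05 to 1.13, counting error only). On the deposited FPKM its values at 0 and 12 h of salt were 122.2 and 122.7, so this small difference depended on the scaling.

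The loci of rank 3 to 6 were chosen for mention after their values were seen. MTR_3g114480 varied between 67.5 and 75.4, MTR_1g116240 between 57.9 and 67.7, MTR_3g100160 between 100.9 and 116.4, and MTR_1g045750 between 131.7 and 156.8 scaled units over the 12 libraries. In these genes the highest library was 1.12 to 1.19 times the lowest. At the limit of the list, the members of rank 99 and 100 (MTR_1g078100 and MTR_3g109922) had CVs of 7.298% and 7.319%. The next 2 genes outside it (MTR_6g088745 and MTR_4g084650) had 7.335% and 7.348%, so the limit fell within an unbroken series of values.

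A higher mean than that of *ACTIN* was found for 3 members and for 2.72% of the genes over the floor. These members were named after their values were seen. The highest was MTR_4g012800, with a mean of 699.97 and scaled values from 623.8 at 12 h of salt to 761.6 at 6 h of salt. MTR_4g130917 lay between 500.1 at 2 h of drought and 635.3 at 12 h of cold, and MTR_6g005820 between 413.96 at 2 h of cold and 532.6 at 6 h of salt. Their CVs were 6.77%, 6.59% and 7.01%, in the same order.

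Part of the spread of the members was counting error. The CV expected from counting the fragments ranged from 0.982% to 5.28% over the members (median 2.9%). The variance of a member was a median of 4.83 times that of counting, compared with 61.7 times for the genes over the floor. It was below that of counting for 1 member, MTR_4g100930 at 0.605 times, and under 2 times for 9 members. Another 18 members had a variance over 10 times that of counting, so their scaled values differed by more than counting in spite of a CV of at most 7.32%. For 508 of the 9533 genes (5.33%) counting error alone was larger than this limit, and the depth did not allow such genes to be ranked against the members.

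**Figure D2:**
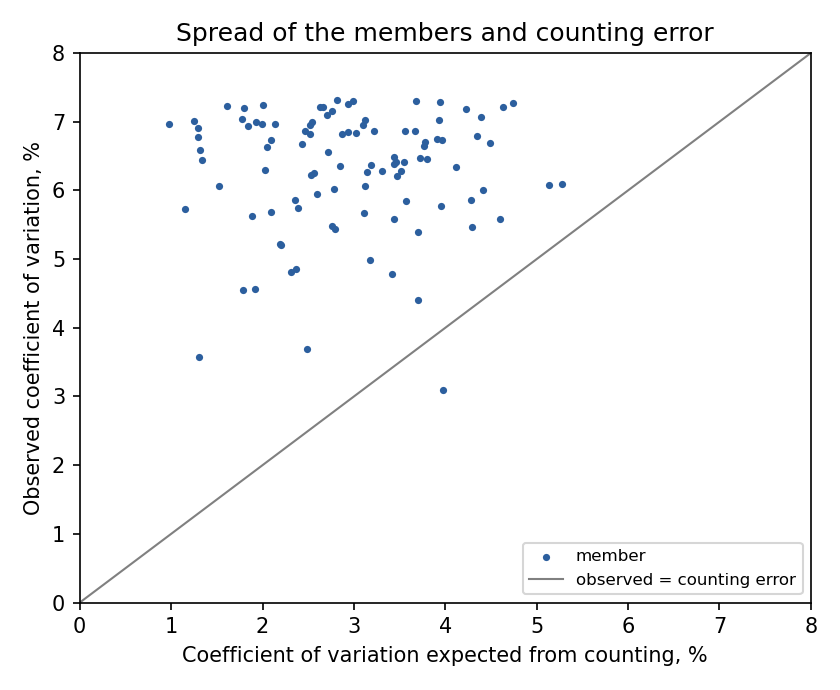
Each point is 1 of the 100 members, with the coefficient of variation expected from counting its fragments on the x axis and the observed one on the y axis, both in percent. All but MTR_4g100930 lie above the line of equal values, and the observed values stop at 7.32%, where the list was limited.

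On the scaled values the members shared small shifts across the libraries. The median of their values relative to their own mean was lowest at 2 h, at 0.971 in cold, 0.984 in drought and 0.976 in salt. In these libraries 70, 61 and 67 of the 100 members were below their own mean. The median was highest at 12 h of cold (1.02) and at 6 h of salt (1.02), where 62 and 65 members were above their mean. The genes over the floor, relative to their own geometric mean, also had their highest medians there, at 1.048 and 1.045. At 2 h of cold, drought and salt these medians were 1.01, 0.998 and 0.992. On the deposited FPKM the members' median ratio to 0 h was instead lowest at 12 h in each stress. It was 0.907 in cold, 0.936 in drought and 0.915 in salt, so the shifts depended on the scaling. The library at 12 h of salt held the lowest value of 20 members, more than any other library, and the lowest single value there was 0.821 of a member's mean. That member, MTR_2g078010, singled out after its values were seen, had a scaled value of 177.1 at 12 h of salt and between 205.0 and 237.1 in the other libraries. The 0 h library of salt held the lowest value of 0 members and the highest of 12. How often each library was the lowest or highest was not counted over the genes over the floor. These counts are therefore not read as a trait of the members.

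**Figure D3:**
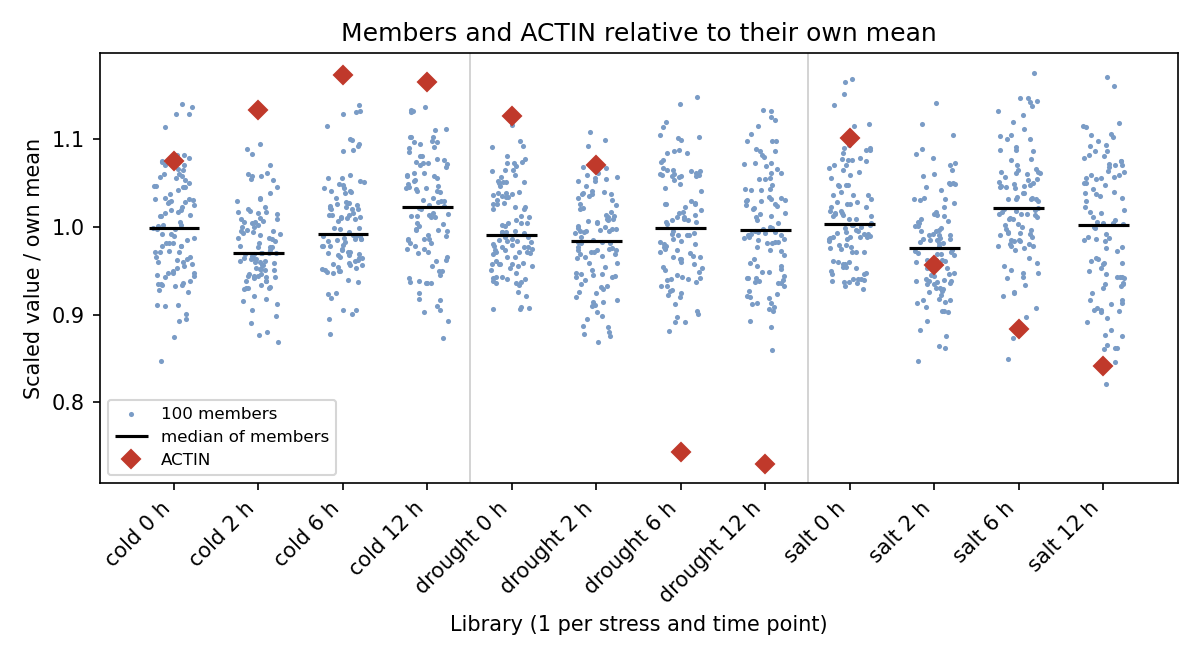
The y axis is a gene's scaled value divided by its own mean over the 12 libraries, shown for the 100 members (points), their median (bars) and *ACTIN* (diamonds) in each library. The members stay between 0.821 and 1.18, whereas *ACTIN* is at 0.743 and 0.73 at 6 and 12 h of drought.

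Against 0 h of the same stress, 0 of the 100 members were 2-fold higher or lower at any of the 9 later time points, while 52.6% of the genes over the floor were. At 1.5-fold the members counted 0 and the genes over the floor 80.2%, and at a change of 25% or more (to 0.8 times or lower, or the inverse) the members counted 7 and the genes over the floor 96.3%. Since the same values chose the members, nothing is read from these counts. At the same threshold of 25% in cold, the members counted 1, 0 and 2 at 2, 6 and 12 h, beside 32.7%, 49.8% and 58.1% of the genes over the floor. In drought they counted 0, 0 and 1, beside 48.9%, 71.2% and 71.7%. In salt they counted 2, 0 and 1, beside 55.6%, 65.5% and 74.7%. The share of all genes past the threshold was larger at the later times of each stress. The largest ratio of a member was 1.30 for MTR_4g052930 at 12 h of cold (from 23.6 to 30.8 scaled units), and the smallest was 0.781 for MTR_8g009960 at 2 h of cold (from 160.1 to 125.0), both named after their values were seen.

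The spread of the members also differed between time points when each was taken alone. Over the 3 libraries at 0 h their median CV was 3.64%, and over the 3 stresses it was 4.6% at 2 h, 4.86% at 6 h and 6.02% at 12 h. For the genes over the floor the medians were 6.07%, 16.5%, 24.7% and 29.7%. Within a stress, the median CV of the members over 4 libraries was 5.29% in cold, 5.36% in drought and 6.51% in salt. The corresponding medians over the floor were 17.4%, 25.8% and 25.5%, lowest in cold.

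To see whether an even level in some stresses carried over to another, 100 genes were chosen in the same way from the 8 libraries of 2 stresses and read in the 4 libraries of the stress left out. In cold, the genes chosen on drought and salt had a median CV of 8.92%, compared with 17.4% over all 9434 genes that passed the floor. In drought, the median was 8.67% for the genes chosen on cold and salt, compared with 25.8%. In salt, it was 10.2% for the genes chosen on cold and drought, compared with 25.5%. Of each 100 genes, 63, 73 and 84 were at or below the lower quartile (25%) of the CVs in cold, drought and salt. Below the median of all genes over the floor were 89, 94 and 97 of them. The spread was thus lower than that of the median gene in the 4 libraries left out of each choice. Over the same 4 libraries the members, whose choice did use them, had lower medians of 5.29%, 5.36% and 6.51% in cold, drought and salt. The left-out libraries were not independent of the choice, since each stress has a 0 h library of untreated seedlings. Those libraries were the most alike, with a chi-square per degree of freedom of 1.72 to 5.64 between them. A highest library at least 2 times the lowest was found for 1, 4 and 2 of the chosen genes in cold, drought and salt, compared with 21.6%, 40.6% and 40.9% of all genes over the floor, and one gene reached a CV of 72.8% in drought. All 3 choices share libraries pairwise, and 48, 50 and 49 of their genes were members.

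**Figure D4:**
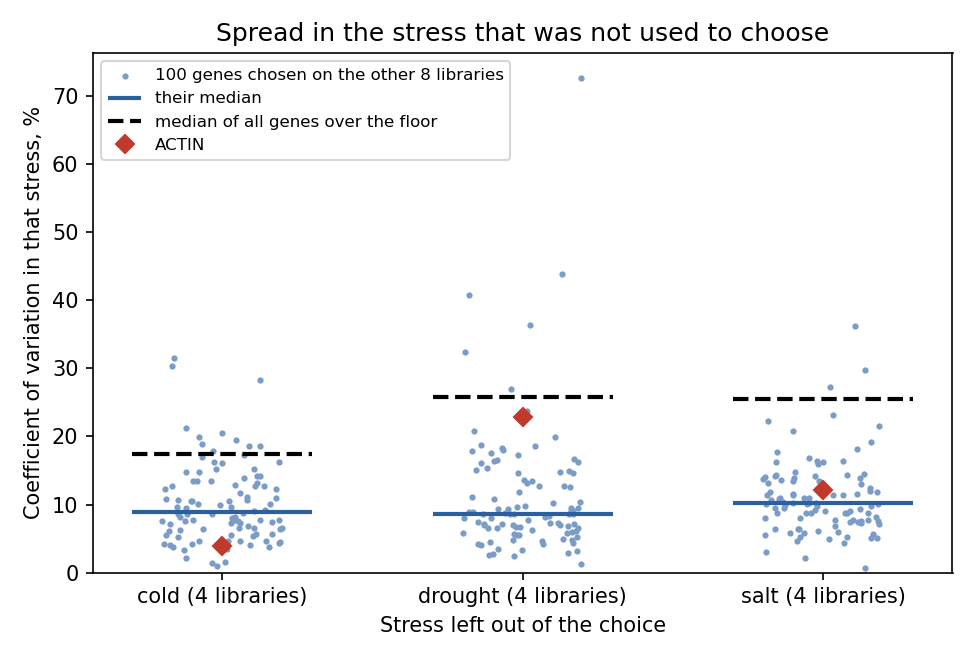
For each stress, the points are the coefficients of variation in its 4 libraries of the 100 genes chosen on the other 8 libraries, with their median (solid line), the median of all genes over the floor (dashed line) and *ACTIN* (diamond). The solid lines at 8.92%, 8.67% and 10.2% are below the dashed lines in each stress, and the *ACTIN* value of 3.91% in cold is below the median of the chosen genes there.

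A total of 15 genes were chosen in all 3 of these runs. They were all members, with ranks between 1 and 24, and included MTR_4g100930 and MTR_1g112870. Each run used 8 of the 12 libraries of the rule, so this overlap is largely built in. Together the 3 runs named 243 different genes, so the composition of such a list depends on the libraries used.

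*ACTIN* had a scaled mean of 431.7 and a CV of 16.3%, which placed it at rank 1956 of 9533. Thus 20.5% of the genes over the floor, and all 100 members, varied less. Among the 763 genes with a mean of at least 200, 105 (13.8%) varied less. Its scaled values at 0, 2, 6 and 12 h were 464.3, 489.3, 506.6 and 503.2 in cold, 486.1, 461.99, 320.95 and 315.1 in drought, and 475.3, 412.9, 381.5 and 363.1 in salt. The 3 values at 0 h lay close together, those in cold were slightly above them, and those at 6 and 12 h of drought and salt were below every value of cold and of 0 h.

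At 12 h, the ratio of *ACTIN* to 0 h was 0.648 in drought (95% interval 0.63 to 0.667, counting error only), 0.764 in salt (0.742 to 0.786) and 1.08 in cold (1.06 to 1.11). On the same scaled values the members had a median ratio of 0.995 in drought, 0.991 in salt and 1.02 in cold. Scaled to the median ratio of the genes, the ratios of *ACTIN* in drought, salt and cold were 0.672, 0.784 and 1.03, and on the deposited FPKM they were 0.609, 0.705 and 0.966, so the slight difference in cold changed direction with the scaling. On the deposited FPKM the median gene over the floor was itself shifted at 12 h, by a log2 of -0.13 in cold, -0.12 in drought and -0.16 in salt. In libraries of whole seedlings, a lower share of a transcript may come from fewer cells of a type or from less RNA per cell, and these cannot be told apart.

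The position of *ACTIN* among the genes depended on the stress. Over the 4 cold libraries its CV was 3.91%, and only 2.67% of the genes over the floor and 29 members varied less. Over the 4 drought libraries its CV was 22.9%, with 44.2% of the genes and all 100 members below it. In salt it was 12.1%, with 15.7% of the genes and all 100 members below it. Over the 3 libraries at 0 h the CV of *ACTIN* was 2.29%, and 11.6% of the genes and 24 members varied less there. The share of genes below *ACTIN* was 23.9% over the 3 libraries at 2 h, 47.5% at 6 h and 40.9% at 12 h.

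The geometric mean of the 100 members was used as a common reference to show how far *ACTIN* and the members part. This geometric mean itself varied between 68.8 and 72.1 scaled units over the libraries. It is nearly constant because the members were chosen for an even level in these same libraries. The ratios below therefore nearly restate the scaled ratios of *ACTIN* to 0 h, such as 0.648 at 12 h of drought, and do not test the members as a reference. Relative to it and to 0 h, *ACTIN* was at 1.08, 1.09 and 1.06 at 2, 6 and 12 h of cold. In drought it was at 0.965, 0.657 and 0.646, and in salt at 0.9, 0.794 and 0.778. A value divided by *ACTIN* would therefore be 1.55 times higher at 12 h of drought, and 1.29 times higher at 12 h of salt, than a value divided by the members. In cold the same factor was 0.941, close to 1.

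**Figure D5:**
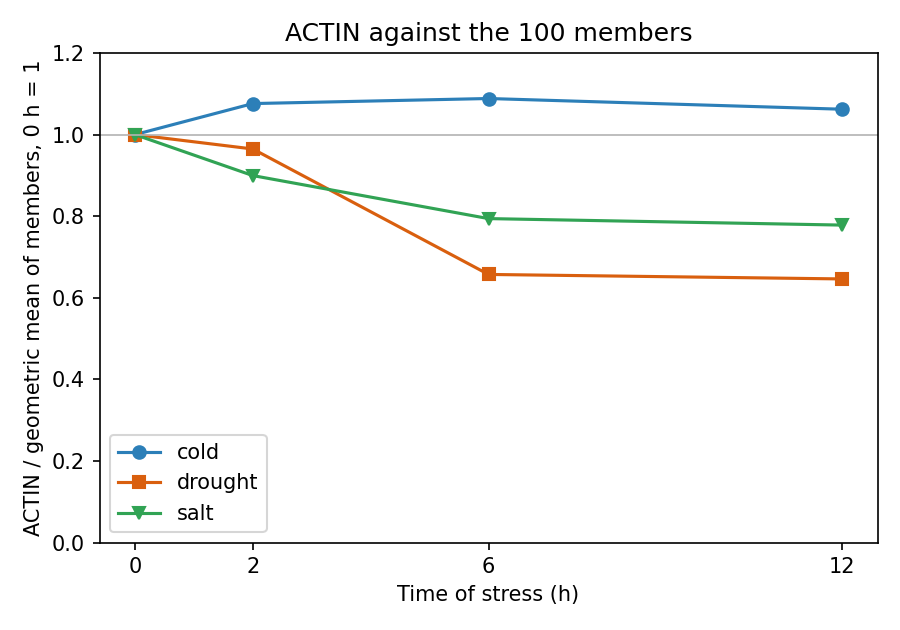
The y axis is the ratio of *ACTIN* to the geometric mean of the 100 members, set to 1 at 0 h of each stress, and the x axis is the time of stress in hours, with 1 library per point. The ratio stays between 1 and 1.09 in cold and reaches 0.646 in drought and 0.778 in salt at 12 h.

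Dividing by *ACTIN* in place of the members multiplies every gene at 12 h of drought by the same factor of 1.55, so the counts that follow restate this factor and are no further observation. The ratios of the members to 0 h were between 0.843 and 1.2504 without a reference gene and between 1.3 and 1.93 after division by *ACTIN*. With the members as reference, 2-fold was passed by 31.2% of the genes over the floor at 12 h of drought, 1296 of them higher and 1674 lower. With *ACTIN* as reference it was passed by 39.4%, 2995 of them higher and 765 lower. Among the genes of the SWEET sugar transporters, *MtSWEET12* had a ratio of 0.531 at this time with the members as reference and 0.822 with *ACTIN*. The ratio of *MtSWEET14* was 1.23 and 1.9, and that of *MtSWEET13* 4.5 and 6.97. That of *MtSWEET2b* was 0.915 and 1.42, so its direction changed with the reference.

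Of the 25 *MtSWEET* genes looked up, 4 passed the floor, beside 9533 of all 54073 genes. None of these 4 was a member, beside 1.05% of the genes over the floor, and 4 genes are too few to read anything from this. The lowest CV of these 4 was that of *MtSWEET14*, at 16.7%, near that of *ACTIN*. *MtSWEET12* had 27.9%, *MtSWEET13* 55.5% and *MtSWEET2b* 60.7%.

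The rule did not use the transcript length by name, but a longer transcript gives more fragments at the same FPKM and so less counting error. The length behind the FPKM values was between 772 and 5548 bp in the members, with a median of 1825 bp, compared with 1669 bp over the floor. In the Mt4.0 locus names the digit after MTR gives the chromosome. By these names, 22 members were on chromosome 1, where 15.1% of the genes over the floor lie, and 21 on chromosome 4 (17.3%). The other chromosomes held 3 to 12 members each. The fewest were on chromosome 6, which also held the fewest genes over the floor (5.28%). Unplaced scaffolds held 153 of the genes over the floor (1.6%), and another 23 (0.241%) had an EPlMTRG identifier. None of them was a member. Since members were 1.05% of the genes over the floor, these genes are too few to read anything from this.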

How the data were processed

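Whole seedlings were measured by RNA-seq in 12 libraries, 1 for each stress and time point, with groups taken from the labels. Per the study's methods, the authors used Tophat 2.1.0 to align the reads, with Mt4.0v1 as the genome, and StringTie 2.0 to obtain FPKM values. The labels also name the read counter HTSeq and a 3′-tag library kit. Which of these programs gave the FPKM values used here is not settled by the sources. If fragments came from 3′ ends, division by transcript length would distort levels between genes. It would leave the CV of a gene's deposited FPKM as it is. It also enters the column sums and the floor, and so can alter the scaled CVs and the list. How reads mapping to several places were counted is not given in the sources used here.

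Columns were scaled to a sum of 1000000, and CVs used the SD with n − 1. Fragments were found as whole numbers from the FPKM, the study's mapped pairs and the shortest length from 20 to 20000 bp. Intervals are 95% Clopper-Pearson intervals on fragments and cover counting error only, with the scaling of the libraries taken as exact. With 1 library per condition, no test was made. The members and lists were chosen with earlier results of these data known. Named loci are *ACTIN* and the 2 members of lowest CV, and others are marked where they appear. Sequence features, reference gene families and marker lists could not be used, since 0 locus names matched the RefSeq table. The steps were tested on simulated data. The scripts ran under Python 3.11.15 with pandas 2.3.3 and numpy 2.4.6, intervals came from scipy 1.17.1, and plots from matplotlib 3.10.9. Alternatives changed the scaling, floor, measure of spread, threshold, control and libraries.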

Additional observations from a re-analysis of the deposited data

Results flagged for a closer look

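*ACTIN* (MTR_3g095530) moved in opposite directions under different stresses on the scaled values. All 3 later libraries of cold were above their 0 h library, while all 3 of drought and all 3 of salt were below theirs. Each counting interval was clear of 1, but these intervals take the scaling as exact and do not measure differences between plants. At 12 h its ratio to 0 h was 0.648 in drought and 0.764 in salt. The difference between the stresses was not tested, as each condition had 1 library. On the deposited FPKM the ratios at 2, 6 and 12 h of cold were 1.004, 1.01 and 0.966, so the rise in cold depended on the scaling. At 12 h of drought and salt they were 0.609 and 0.705 on that scale.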

How the results depend on the processing

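Of the 100 members, 72 remained with median ratio scaling, 91 and 89 with a floor of 10 or 1, 98 with the SD of log2 values, and 81 each with the ratio of highest to lowest library or without the variance of counting error. Only 61 remained on the deposited FPKM, 60 without the 3 libraries at 0 h, and 62 with a floor of 50, which bars the members below it. Chosen on the 3 libraries of 1 time point, the list shared 3, 5, 14 and 11 genes with the members at 0, 2, 6 and 12 h, the cause of which was not tested. Leaving out each library in turn kept 65 to 90 members, the fewest without salt at 12 h. The share of genes varying less than *ACTIN* was 23.7% on the deposited FPKM, 17.2% with median ratio scaling, 18.4% and 11.9% with a floor of 10 or 1, 24.8% with the SD of log2 values, 15.7% with the ratio of highest to lowest, 22.2% without counting error, and 27.6% without 0 h. It was 11.9%, 23.6%, 48.0% and 41.5% at 0, 2, 6 and 12 h alone, and 15.5% to 22.9% when single libraries were left out. Of the members, 7 were past a change of 25% and 0 past 1.5-fold or, at 2-fold, under another scaling or control. The counts of the genes read in the stress left out stayed within 1.5 times under the alternatives tried. No paired analysis was possible because each condition had 1 library. Depth limited the ranking of genes with few fragments.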
